A study of Chlorocebus sabaeus with 12 samples.

Results

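AHSG, FETUB, HRG and KNG1 lie next to each other on the long arm of human chromosome 3 and encode plasma proteins of the cystatin family. They are described here in COS-1 cells that carried a mutant of the bile acid receptor FXR and were given a bile acid or its solvent. The members were all probes of the array whose gene name is one of these 4 names. That gave 6 of 41000 probes and 4 of 30982 gene names, of which 3 were tested among 20355 genes. HRG and FETUB were chosen by their higher signal under the bile acid with 1 of the FXR mutants, which was already known, and AHSG and KNG1 by their place beside them. All values from the arrays with that mutant and the bile acid are therefore a description of HRG and FETUB and no independent support for their direction.

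The question behind the series is the role of a phosphorylation site of FXR, a nuclear receptor for bile acids encoded by NR1H4. COS-1 is a kidney line of the African green monkey that was immortalised with SV40. The cells transiently expressed human FXR S154A, in which a serine is replaced by an alanine that cannot be phosphorylated, or FXR S154D, with an aspartate that resembles a phosphorylated serine, for 24 h. For a further 24 h they received 0.1% DMSO or the bile acid CDCA (chenodeoxycholic acid), whose dose is labelled 50 mM. This made the groups S154A_DMSO, S154A_CDCA, S154D_DMSO and S154D_CDCA with 3 arrays each. All 4 groups share the cell line and a transfected FXR mutant, and neither wild-type FXR nor untransfected cells were measured. Nothing in the labels says that replicates came from separate cultures, so the p-values measure the spread between arrays, which may be technical.

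The proteins of these genes share cystatin domains, a fold named after inhibitors of cysteine proteases, and are made mainly by the liver and secreted into plasma. Fetuin-A (AHSG) keeps calcium phosphate in solution, and fetuin-B (FETUB) inhibits ovastacin, the protease of the egg that hardens its coat after fertilisation. Histidine-rich glycoprotein (HRG) binds heparin, zinc, heme and plasminogen, and kininogen (KNG1) is the precursor from which kallikreins release bradykinin. The kininogen gene has been described as responsive to FXR in liver cells.

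Each member probe is 60 bases long, on the plus strand of chromosome 3 in the human build hg17. The first 30 bases of each, 5′ to 3′, are shown because the array reads monkey RNA through these human sequences alone. Whether a probe lies in a coding exon or a UTR was not examined here. Capitals in the HRG probe and in the probe named N68297 mark bases that are exact reverse complements of each other.
AHSG, A_23_P155509, chr3:187821667-187821726: catgattgtgttctctgcctctggttgacc
AHSG, A_23_P155514, chr3:187821534-187821593: gatctacattaatatcaagtcttgactccc
FETUB, A_23_P144126, chr3:187853220-187853279: ctagtgaaggacgcctttttgactcttctt
HRG, A_23_P321892, chr3:187878616-187878675: TCTATGCCACTCAGAATCTCCTTCTTTCCT
KNG1, A_23_P212258, chr3:187939892-187942058: aaccactgggaatgatctcactgatgaaaa
KNG1, A_24_P60381, chr3:187918151-187918210: gctctgaagaaatataacagtcaaaaccaa
N68297, A_32_P23172, minus strand, chr3:187878600-187878659, bases 15 to 44: AGGAAAGAAGGAGATTCTGAGTGGCATAGA

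The G and C content of the member probes ran from 35% for KNG1 A_24_P60381 to 45% for FETUB and KNG1 A_23_P212258, and the median over the genes tested was 45%. The coordinates of KNG1 A_23_P212258 span more than its 60 bases, so the bases of that probe are not contiguous in the human genome. N68297 is a separate feature of the array that reads the opposite strand over the HRG probe, sharing 44 bases with it.

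Between 61.6% and 79.8% of an array's spots were well above background, and the 75th percentile of the signal lay between 1235 and 2105. Levels below are log2 signals relative to that percentile of the same array, so they are negative for dim probes, and they are not compared between probes. NR1H4 was well above background on 12 of 12 arrays, at 7.46 to 7.94. The 3 tested markers of leukocytes and 6 tested of fibroblast-like cells, with 9 of kidney tubule epithelium, included none called for CDCA with S154A. There 0.133% of all genes were called. With S154D, where 10.2% of all genes were called, the fibroblast-like marker COL1A1 was called lower (-0.56) and the epithelial marker TACSTD1 higher (0.52). Their lists went both ways. The 6 fibroblast-like markers ran from -0.56 to 0.35, with 3 positive, and the 9 epithelial ones from -0.68 to 0.52, with 4 positive. The part of these markers in other results was not tested. Of 4 slides, slide 3 carried 1 array of each group. S154A_DMSO 1, S154A_CDCA 3 and S154D_DMSO 1 were on slide 1, S154A_DMSO 2 with S154D_CDCA 1 and 3 on slide 2, and S154A_CDCA 2 with S154D_DMSO 2 on slide 4. All 3 S154A_DMSO arrays were at the first position of their slides, so position and that group cannot be told apart.

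**Figure D1:**
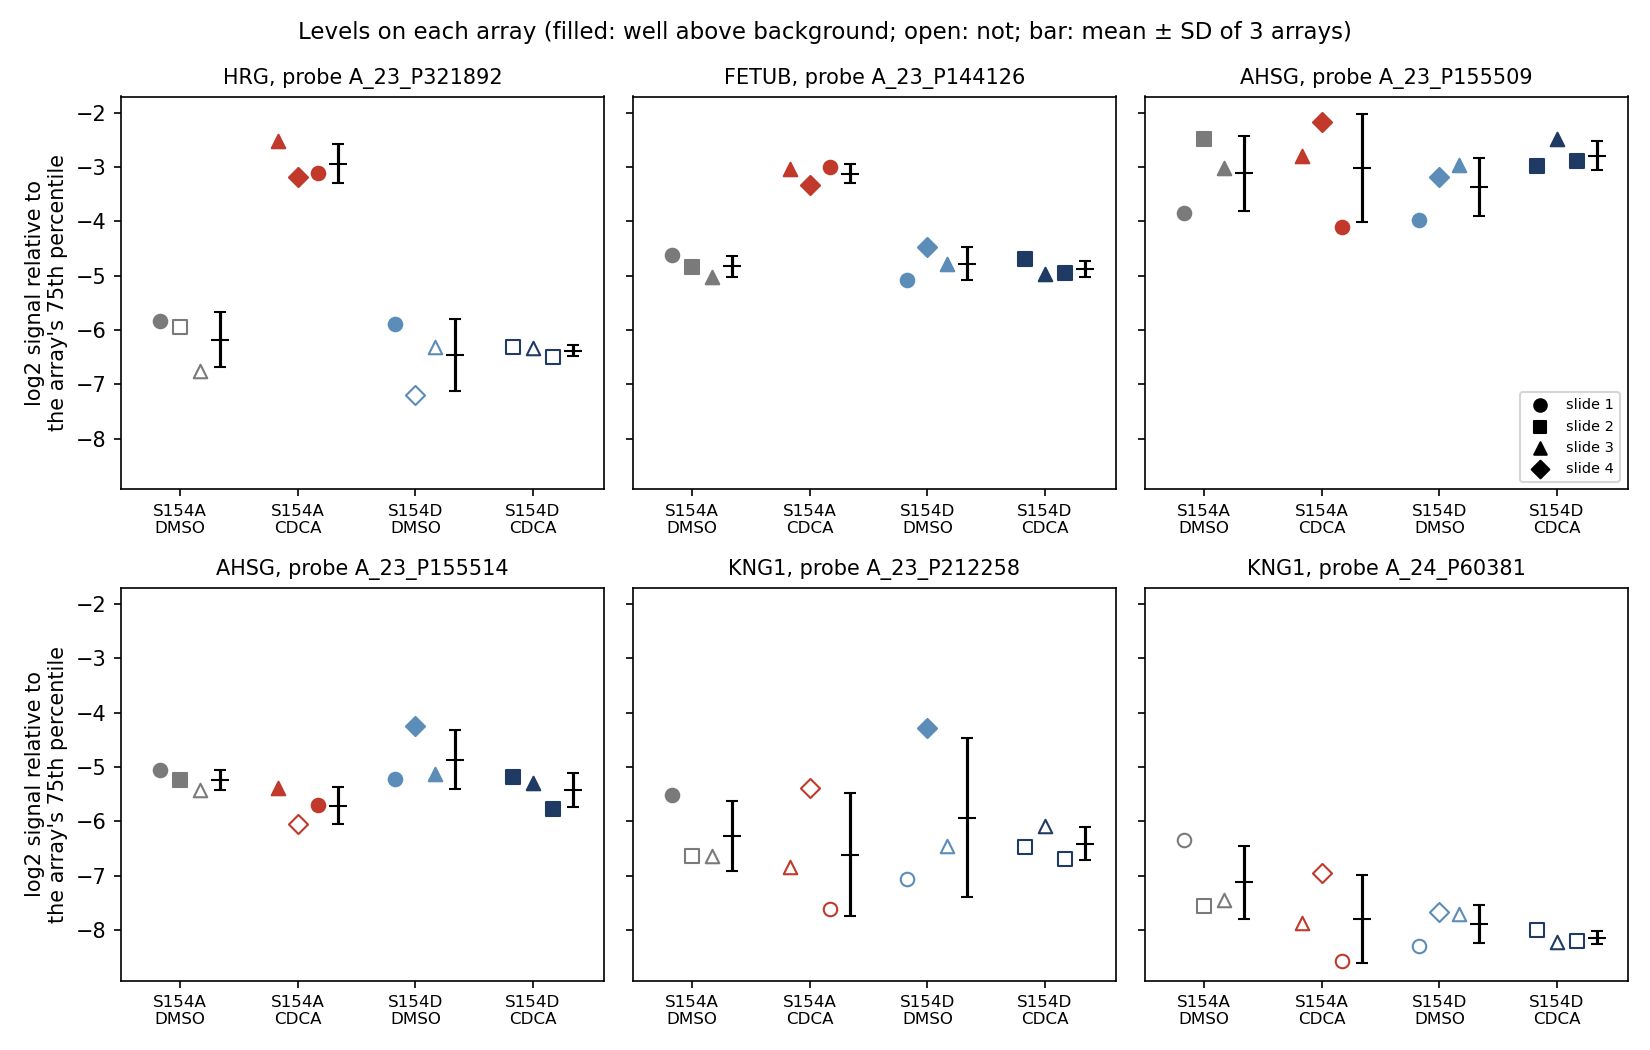
Log2 level of each member probe relative to the array's 75th percentile (vertical axis) on each array of the 4 groups (horizontal axis). Filled symbols were well above background and open ones were not, symbol shapes give the slide, and the bar is the mean ± SD of 3 arrays. HRG and FETUB stand apart in S154A_CDCA, while the 2 groups of each pairwise comparison overlap for both AHSG probes.

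HRG and FETUB were higher under CDCA with S154A than in each of the other 3 groups, and their levels in those other groups lay close together. AHSG, which adjoins FETUB, showed no such pattern at either of its probes. KNG1 was at or near background on nearly every array.

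HRG, the histidine-rich glycoprotein, had the larger difference. Its probe read -5.83, -5.94 and -6.76 in S154A_DMSO and -2.53, -3.18 and -3.12 in S154A_CDCA. With S154D it read -5.89, -7.19 and -6.31 in DMSO and -6.31, -6.32 and -6.50 in CDCA. All 3 S154A_CDCA arrays lay above all other arrays, and the other groups overlapped. In the scanner's own units these 3 arrays gave 227, 206 and 207, against 10.9 to 36.9 on the other 9.

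The HRG probe was well above background on all 3 S154A_CDCA arrays, on S154A_DMSO 1 and on S154D_DMSO 1, that is on 5 of 12 arrays. It passed the filter through S154A_CDCA alone, the group in which it is high. By the scanner's weaker criterion of a positive and significant signal it was detected on 12 of 12. The 3 lower group means were -6.18 ± 0.51 (SD, n = 3) in S154A_DMSO, -6.38 ± 0.11 in S154D_CDCA and -6.46 ± 0.66 in S154D_DMSO, and differed by less than the SD within S154D_DMSO. The mean in S154A_CDCA was -2.94 ± 0.36.

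FETUB, encoding fetuin-B, was well above background on 12 of 12 arrays, so its difference does not rest on values at background. It read -4.62, -4.84 and -5.02 in S154A_DMSO and -3.04, -3.32 and -3.00 in S154A_CDCA. With S154D the readings were -5.08, -4.47 and -4.79 in DMSO and -4.70, -4.97 and -4.95 in CDCA. As for HRG, all 3 S154A_CDCA arrays lay above the other 9, which overlapped. Of all genes, 3.76% had all 3 S154A_CDCA arrays above all 3 of S154A_DMSO, and 7.51% had all 3 S154D_CDCA arrays below all 3 of S154A_CDCA. The group means were -3.12 ± 0.18 in S154A_CDCA, then -4.78 ± 0.31 in S154D_DMSO, -4.83 ± 0.20 in S154A_DMSO and -4.87 ± 0.15 in S154D_CDCA (SD, n = 3), the last 3 within the SD of S154D_DMSO.

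AHSG, encoding fetuin-A, was read by 2 probes, which did not move together. The brighter, A_23_P155509, was well above background on 12 of 12 arrays and stood for the gene. It read -3.85, -2.49 and -3.02 in S154A_DMSO and -2.79, -2.17 and -4.11 in S154A_CDCA. With S154D it read -3.97, -3.19 and -2.96 in DMSO and -2.98, -2.49 and -2.89 in CDCA. The groups overlapped, and the 3 lowest readings were those of slide 1 in 3 different groups.

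The group means of this AHSG probe, -2.79 ± 0.26 in S154D_CDCA, -3.02 ± 0.99 in S154A_CDCA, -3.12 ± 0.69 in S154A_DMSO and -3.37 ± 0.53 in S154D_DMSO (SD, n = 3), all lay within the SD of S154A_CDCA. The other probe, A_23_P155514, was well above background on 10 of 12 arrays, with means of -5.24 ± 0.19 in DMSO and -5.71 ± 0.34 in CDCA for S154A, and of -4.86 ± 0.54 and -5.42 ± 0.32 for S154D. Over 12 arrays the pair of probes correlated at -0.24 (Pearson) and -0.37 (Spearman), values that share the arrays' scaling and are given as a description.

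KNG1, the kininogen gene, was not tested, because neither of its probes was well above background on all 3 arrays of any group. A_23_P212258 was well above background on 2 of 12 arrays, S154A_DMSO 1 at -5.52 and S154D_DMSO 2 at -4.28, and read -7.61 to -5.39 on the others. A_24_P60381 was well above background on 0 of 12 arrays and read -8.56 to -6.35. On 11 of these the scanner software had put a substitute value in place of the signal. The S154A_CDCA readings of A_23_P212258 were -6.83, -5.39 and -7.61, of which the last was the lowest of the 12 arrays and the others lay within the range of the other groups. A difference of KNG1 between groups was not detectable at these signals.

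With S154A, HRG was 3.24 ± 0.34 higher in CDCA than in DMSO on the log2 scale (fitted difference ± SE, 95% interval 2.49 to 3.99, 3 arrays a group), a ratio of 9.43. Only 1 of the 3 DMSO arrays behind that ratio was well above background. FETUB was 1.71 ± 0.17 higher (interval 1.32 to 2.09), a ratio of 3.27. Both were among the 26 genes called higher at an adjusted p under 0.05 in limma's fit over all genes, 0.128% of those tested, and the choice of these members fixes that count. AHSG differed by 0.10 ± 0.49 (interval -0.99 to 1.18, limma adjusted p = 0.991), and its other probe by -0.47.

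Slides 1 and 3 held arrays of both groups. Within slide 3 the S154A difference was 4.23 for HRG and 1.98 for FETUB, and within slide 1 it was 2.71 and 1.62, from 1 array a group. The HRG array in DMSO on slide 3 was not well above background, and set at the dimmest signal that was so on that array it gives a difference of at least 3.00. With slide as a fixed block the fit gave 3.51 for HRG, still called, and 1.70 for FETUB, which then missed the threshold (limma adjusted p = 0.115). A further alternative used normexp background correction in place of the scanner's own, with an offset of 50 added to each signal. Under it the differences were 1.66 for HRG and 0.94 for FETUB, both still called. An added offset by itself makes log2 differences between dim signals smaller, and its share in these values was not told apart.

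With S154D, none of the 3 tested members was called for CDCA against DMSO, in a comparison in which 10.2% of all genes were (2077 of 20355, and 0 with slide as a fixed block). HRG differed by 0.08 ± 0.34 (interval -0.66 to 0.83, limma adjusted p = 0.894), and FETUB by -0.10 ± 0.17 (interval -0.48 to 0.29, limma adjusted p = 0.747). The FETUB interval leaves out a rise of 1.71, the value with S154A. That value chose the gene, so this is a description and no test of a difference between mutants. The HRG interval is not set against its S154A value, since it rests on readings mostly not well above background. HRG has no ratio here, since 1 of 3 DMSO arrays and 0 of 3 CDCA arrays were well above background. AHSG differed by 0.58 ± 0.49 (interval -0.50 to 1.67, limma adjusted p = 0.458) and its other probe by -0.56 (limma adjusted p = 0.199 with every probe fitted on its own).

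Without bile acid no member was called between the mutants. S154D minus S154A in DMSO was -0.28 ± 0.34 for HRG (interval -1.03 to 0.47), 0.05 ± 0.17 for FETUB (interval -0.33 to 0.43) and -0.25 ± 0.49 for AHSG, each with a limma adjusted p of 0.999. Of all genes 0% were called there, and limma gave 880 of 20355 at an unadjusted p under 0.05. The KNG1 probe A_24_P60381 was lower on all 3 S154D_DMSO arrays than on all 3 S154A_DMSO arrays, by a mean of 0.77 on the log2 scale, with no array well above background. The readings on all 3 S154D_DMSO arrays and on S154A_DMSO 2 and 3 were substitute values of the scanner software, so no difference of KNG1 is read from this. In this comparison 6.2% of the genes tested had all 3 arrays below all 3, a share over genes that passed the filter, which this probe did not.

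In CDCA the levels of HRG and FETUB were lower with S154D than with S154A. With the scanner's own background subtraction, HRG was at least 9.77-fold lower with S154D than with S154A. For this bound the S154D arrays, none of them well above background, were set at the dimmest signal that was so on each (mean -6.23). The bound covers neither the spread between arrays nor the normexp correction with its offset below, under which the difference was smaller. The fitted log2 difference was -3.44 ± 0.34. FETUB fell by 1.75 on the log2 scale (SE 0.17), which is a ratio of 3.37. With slide as a fixed block neither passed the threshold (limma adjusted p = 0.0536 for HRG and 0.157 for FETUB). With normexp and its offset of 50 the log2 differences were -1.78 and -0.99, both still called. Both were among the genes called lower, 0.329% of those tested, and the same S154A_CDCA arrays enter here, so nothing is read from that count. AHSG differed by 0.23 ± 0.49 (limma adjusted p = 0.792).

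The response to CDCA with S154D minus that with S154A was -3.15 ± 0.48 for HRG and -1.80 ± 0.24 for FETUB, and 0.48 ± 0.69 for AHSG (limma adjusted p = 0.711). HRG and FETUB were among the 0.0933% of genes called with a lower response in S154D, again through the arrays that chose them. Within slide 3, which held 1 array of each group, the value for FETUB was -2.17. That for HRG was -4.25, with only the S154A_CDCA array well above background. With normexp and its offset the values were -1.78 for HRG, still called, and -0.99 for FETUB, which missed the threshold. With slide as a fixed block they were -3.69 and -1.79, and neither passed the threshold (limma adjusted p = 0.30 for both). Leaving out 1 array at a time kept the call in 1 of 12 fits for HRG (-3.52 to -2.86) and in 2 of 12 for FETUB (-1.95 to -1.65), so nearly every array was needed for it.

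**Figure D2:**
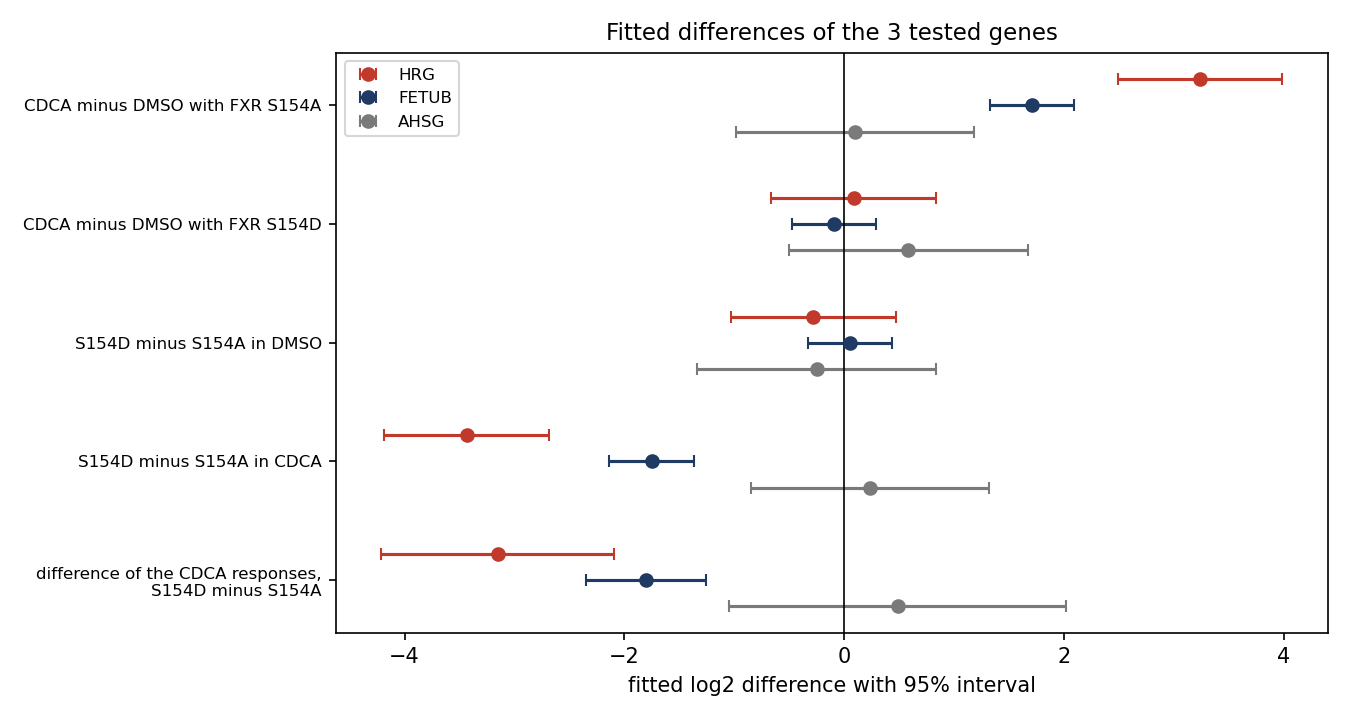
Fitted log2 difference with its 95% interval (horizontal axis) of HRG, FETUB and AHSG in each of 5 comparisons (vertical axis), from the fit of all 12 arrays. The intervals of HRG and FETUB lie away from 0 in the 3 comparisons that use the S154A_CDCA arrays, which chose these genes, and span 0 in the others, while those of AHSG span 0 in all 5.

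Over all 12 arrays HRG and FETUB correlated at 0.93 (Pearson) and 0.56 (Spearman). Over the 9 arrays outside S154A_CDCA the values were -0.31 and -0.03. The likeness of both genes over 12 arrays thus rests on the 3 S154A_CDCA arrays. All pairs share the scaling of their arrays, and HRG was well above background on 2 of those 9. AHSG had a correlation of 0.01 with HRG and -0.02 with FETUB over 12 arrays.

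**Figure D3:**
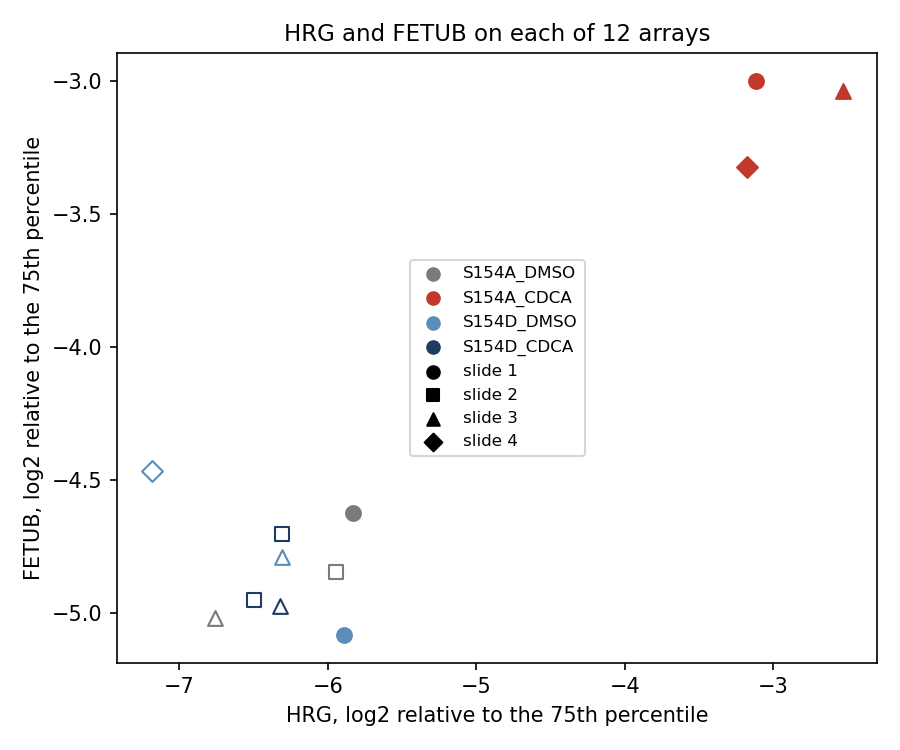
Log2 level of FETUB (vertical axis) against that of HRG (horizontal axis) on each of 12 arrays, relative to the array's 75th percentile. Colours give the group, shapes the slide, and open symbols arrays on which HRG was not well above background. The 3 S154A_CDCA arrays stand apart from the other 9, which show no upward trend.

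The genes with a symbol most like HRG over the 12 arrays were MYOM2, a protein of the sarcomere's M band (r = 0.97), FABP6, the ileal bile acid binding protein, OSTalpha, a subunit of a bile acid exporter, RBP4, the plasma carrier of retinol, and SAMD11 (each 0.96). For FETUB they were OSTalpha (0.97), CCDC37, FABP6, RBP4 and SLCO2A1, a prostaglandin transporter (each 0.96). Of 20241 genes with values on all arrays, 20 had a correlation over 0.9 with HRG and 29 with FETUB. Outside S154A_CDCA, over 9 arrays, the 5 genes had correlations with HRG of 0.10 to 0.55, and those named for FETUB of 0.27 to 0.81. The highest of these was CCDC37 with FETUB, a gene that was well above background only on the 3 S154A_CDCA arrays.

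By size, the CDCA difference with S154A was 7.08 ± 0.57 for FABP6, 2.56 ± 0.18 for OSTalpha, 2.21 ± 0.15 for RBP4 and 1.81 ± 0.16 for MYOM2. That of FETUB (1.71 ± 0.17) was near that of MYOM2 and above 1.22 ± 0.14 for SAMD11 and 0.44 ± 0.08 for SLCO2A1. SLCO2A1 was not called (limma adjusted p = 0.138). HRG is not ranked among them, since 2 of its 3 DMSO arrays were not well above background. CCDC37 (2.88 ± 0.42) is not ranked either, since none of its DMSO arrays was. With S154D FABP6, OSTalpha, RBP4 and MYOM2 gave 0.16 ± 0.57, 0.20 ± 0.18, 0.26 ± 0.15 and 0.18 ± 0.16. SAMD11 gave -0.29 ± 0.14 and SLCO2A1 0.04 ± 0.08, and limma called none of these genes there. The FABP6 value rests on readings near background, since S154D_DMSO 2 and 3 and S154D_CDCA 3 were not well above it.

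Within 1 Mb of the outermost member probes in hg17 lay 32 other gene names, 20 of them tested. For CDCA with S154A limma called 0 of the 20, where 27 of 20355 genes were called (0.133%) and 1207 had an unadjusted p under 0.05. Their median log2 difference was 0.03 (range -0.48 to 0.75), beside -0.04 over all genes. The 7 tested within 250 kb ranged from -0.27 to 0.30. With S154D 1 of the 20 was called, SFRS10, a splicing factor gene named after its value was seen, at 0.46 ± 0.11 (limma adjusted p = 0.0362), beside 10.2% of all genes.

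DNAJB11, a chaperone of the endoplasmic reticulum and the nearest tested gene on the AHSG side, differed by 0.16 ± 0.11 with S154A and 0.21 ± 0.11 with S154D. EIF4A2, a translation initiation helicase and the nearest on the KNG1 side, differed by 0.15 ± 0.13 and -0.13 ± 0.13. Neither passed the test. The furthest from 0 with S154A was a feature without a symbol, BQ188318, at 0.75.

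The order of these genes in hg17 is not the one listed for the monkey. In the green monkey RefSeq assembly mChlSab1.0.hap1, HRG, FETUB and AHSG are consecutive protein-coding genes on chromosome 15, with DNAJB11 beyond AHSG and DCLK3, a kinase gene, beyond HRG. KNG1 lies elsewhere on that chromosome, between STAC and EIF4A2, with 361 protein-coding genes between it and AHSG. This is the order in 1 assembly, and whether the place of KNG1 there is that of the genome or comes from the assembly was not tested. Of the human neighbours, 7 gene names lie on the monkey side of HRG, FETUB and AHSG, 10 on the side of KNG1, and 15 had no match by symbol. The 7 tested on the side of HRG had a median difference of 0.12 for CDCA with S154A (range -0.15 to 0.40) and the 8 tested on the side of KNG1 one of -0.03 (range -0.48 to 0.30), with none called in either.

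**Figure D4:**
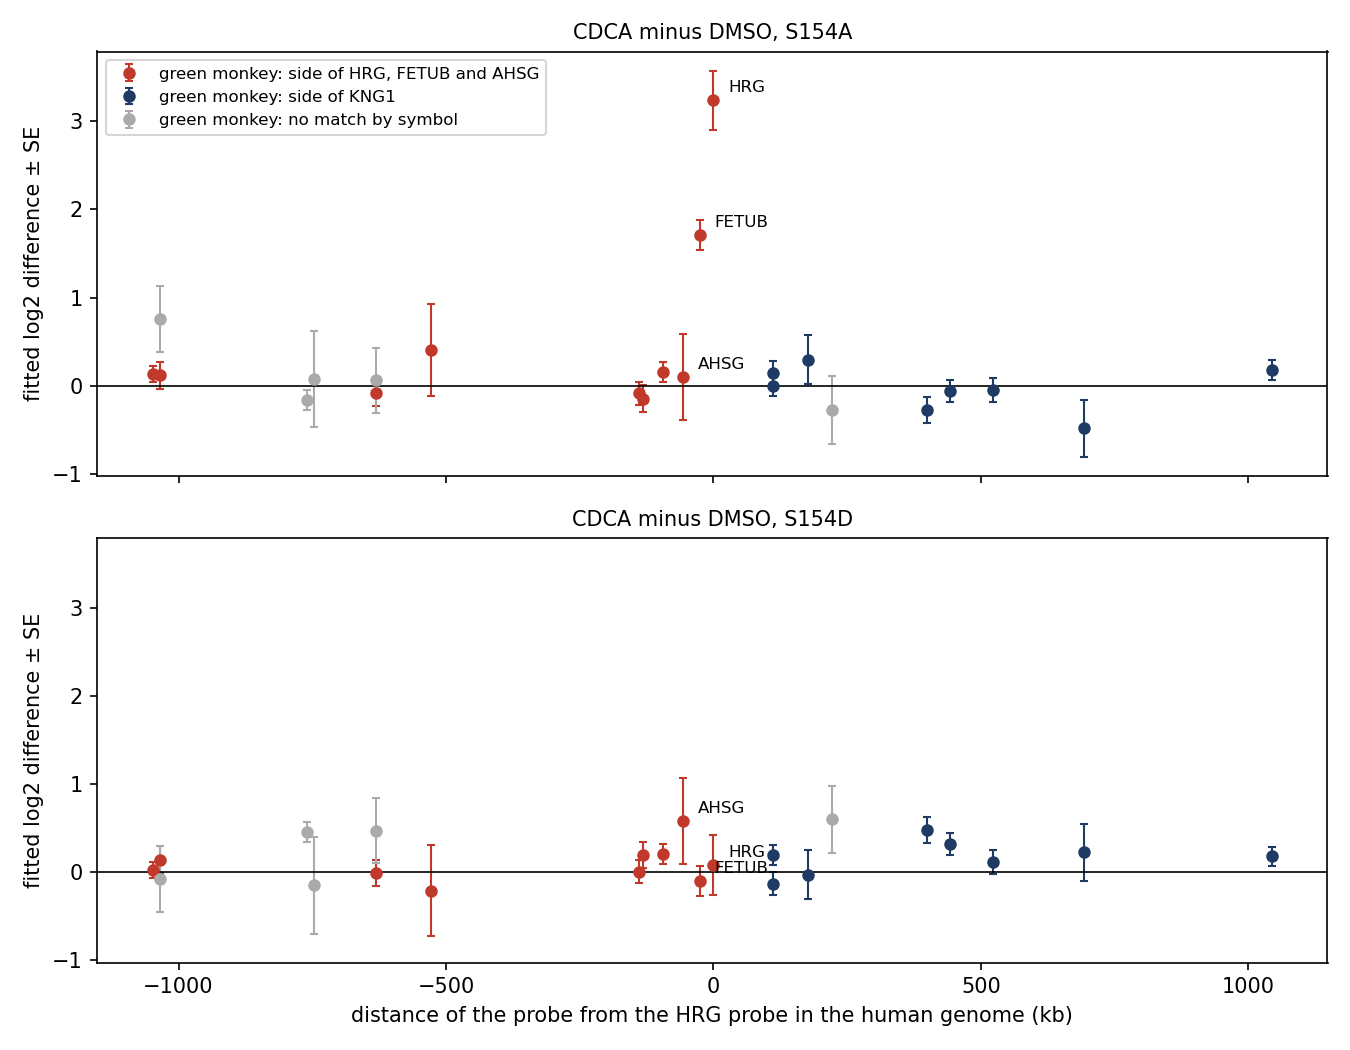
Fitted log2 difference ± SE between CDCA and DMSO (vertical axis) with S154A (upper panel) and S154D (lower panel) for HRG, FETUB, AHSG and the 20 tested neighbours, against the distance of each probe from the HRG probe in the human genome in kb (horizontal axis). Colours give the side on which the gene lies in the green monkey assembly. With S154A, HRG at 3.24 and FETUB at 1.71 stand above the neighbours, which range from -0.48 to 0.75.

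The probe N68297, on the strand opposite to HRG, was well above background on 0 of 12 arrays and read -8.83 to -6.22. On the S154A_CDCA arrays, where HRG was high, it read -8.83 to -7.20. The scanner software had put a substitute value in place of the signal of N68297 on 9 of the 12 arrays. A probe never well above background cannot show whether the opposite strand was low, so no level of that strand is read from it.

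Other genes of the cystatin superfamily were not called in any of the 5 comparisons. Of all genes, 0.133% were called for CDCA with S154A, 10.2% with S154D and 0% between mutants in DMSO. Between mutants in CDCA 82 of 20355 were called, and 28 for the difference of responses. At such shares the absence of calls among 8 tested genes says little about the family. Of 13 on the array 8 were tested, and their median difference for CDCA with S154A was -0.09 (range -0.29 to 0.18). There limma gave 0 of 8 at an unadjusted p under 0.05, beside 1207 of 20355 genes. CST5, encoding cystatin D, differed by -0.29 ± 0.20, CST6, encoding cystatin M, by -0.29 ± 0.31, CSTB, an inhibitor of cathepsins inside the cell, by -0.28 ± 0.14, and CST2, a salivary cystatin, by 0.18 ± 0.38. With S154D the median was 0.04 (range -0.37 to 0.74), beside -0.01 over all genes, and 2 of 8 had an unadjusted p under 0.05, beside 6104 of 20355 genes.

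Of the kinin and contact pathway, which acts on kininogen, 17 of 22 genes were tested. With S154A limma called none, at a median of -0.06, and 0 had an unadjusted p under 0.05. Over all genes 0.133% were called there and 1207 of 20355 had such a p. DPP4, a peptidase of the cell surface, differed by -0.76 ± 0.78. KLKB1, the plasma kallikrein that cleaves kininogen, differed by -0.32 ± 0.26, and KLK1, the tissue kallikrein, by -0.33 ± 0.28. With S154D 1 of 17 was called, ECE1, a peptidase known to degrade bradykinin, which fell by 0.81 on the log2 scale (SE 0.19, limma adjusted p = 0.0339), where 10.2% of all genes were called. With slide as a fixed block no gene of the array was called for S154D, ECE1 included.

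Among binding partners and target enzymes of HRG and the fetuins, 19 of 23 on the array were tested. With S154A none was called by limma, beside 0.133% of all genes. An unadjusted p under 0.05 was found for 1, beside 1207 of 20355 genes, and the median was -0.02. ASGR2, a subunit of the liver's asialoglycoprotein receptor, differed by -0.33 ± 0.24, INSR, the insulin receptor, by 0.31 ± 0.22, and BGLAP, encoding osteocalcin, by -0.26 ± 0.20. With S154D 1 of 19 was called, ANXA2, an annexin that binds plasminogen, which fell by 0.36 (SE 0.09, limma adjusted p = 0.035), again beside 10.2% of all genes called.

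Of 50 other plasma proteins of the liver, all on the array, 31 were tested and 8 were never well above background, among them APOB, APOC3, F9 and GC. For CDCA with S154A 1 of 31 was called, RBP4, which rose by 2.21 (SE 0.15), where 0.133% of all genes were called. ITIH3, a chain of the inter-alpha-trypsin inhibitors, differed by 1.22 ± 0.25 (limma adjusted p = 0.210), AMBP, a precursor of another chain of these inhibitors, by -0.70 ± 0.55, and HPX, the heme carrier hemopexin, by -0.46 ± 0.33. The median of the list was -0.15 (range -0.70 to 2.21), beside -0.04 over all genes. With S154D none of the 31 was called and 4 had an unadjusted p under 0.05, where 10.2% of all genes were called and 6104 of 20355 had such a p. The number of these genes well above background ran from 25 to 33 on the S154A_CDCA arrays and from 24 to 38 on the S154A_DMSO arrays.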

How the data were processed

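RNA of COS-1 cells was hybridised to 1-colour Agilent whole human genome arrays, 12 in 4 groups of 3. The deposited scanner files hold for each spot an intensity, background-subtracted and detrended by Agilent Feature Extraction, version 9.5.3.1 per the file headers and version 12 per the submitters' processing notes. The deposited series table held the same intensities on each array, with no scaling between arrays.

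From log2 of this signal each array's 75th percentile over 43376 non-control spots was subtracted, without outlier spots. A probe was kept (26898 were) if some group had it well above background on its 3 arrays, and the brightest stood for a gene (20355). One mean per group was fitted with limma 3.58.1 in R 4.3.3 (tables read with the package data.table, version 1.17.8; prior degrees of freedom 2.3, residual 8) over all genes, a step tested on simulated data, with Benjamini-Hochberg adjustment, two-sided, and calls at an adjusted p under 0.05. The number of arrays limits the precision.

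Members and the 7 gene lists were chosen with earlier results of these data known. Named genes were the members, the 5 most correlated with HRG or FETUB, up to 4 per list (called first, then the largest S154A differences), and the nearest and most changed neighbours. Scalings, background corrections, filters, blocks and subsets were tried as alternatives. The normexp background correction added an offset of 50 to each signal. Promoters and proteins were not analysed here.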

Additional observations from a re-analysis of the deposited data

Results flagged for a closer look

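The CDCA response of HRG differed between mutants by -3.15 on the log2 scale, from 3.24 with S154A and 0.08 with S154D, and was singled out because the term for the difference of responses passed the threshold. That of FETUB differed by -1.80, from 1.71 and -0.10, for the same reason. Both genes were chosen through the S154A_CDCA arrays that enter this term, so these values describe them and add no support. Neither held its call with slide as a fixed block.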

How the results depend on the processing

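For CDCA with S154A, HRG was called under all fitted alternatives that kept it (1.66 to 3.54), and 2.71 within slide 1 and 4.23 within slide 3. It had no value when a signal well above background was required on all 12 arrays. FETUB missed the threshold with no scaling (1.61), with slide as a fixed block (1.70) and with that block and probe GC correction (1.65), and was 1.98 within slide 3. Leaving out each array in turn kept both called, at 2.95 to 3.41 for HRG and 1.61 to 1.81 for FETUB. For S154D minus S154A in CDCA, HRG missed the threshold with slide as a fixed block (-3.70) and with GC correction too (-3.75), and FETUB with these (-1.75, -1.69) and with no scaling (-1.72). Without each array they ran from -3.55 to -3.23 and from -1.86 to -1.69, all called. Both comparisons use the S154A_CDCA arrays that chose these genes, and HRG passed the main filter through that group alone. The calls kept here therefore describe the processing and add no support for the responses.

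The difference of responses was the least stable. For HRG it missed the threshold with median scaling (-3.09), no scaling (-2.87), no filter (-3.15), slide as a fixed (-3.69) or random block (-3.24), without slide 4 (-3.63), and with GC correction (-3.24) or that and slide (-3.76). For FETUB it did so with normexp (-0.99), no scaling (-1.52), no filter (-1.80), slide as a fixed block (-1.79), without slide 4 (-1.75), and with GC correction (-1.73) or that and slide (-1.67). Without each array in turn it ran from -3.52 to -2.86 for HRG (called in 1 of 12, without S154D_DMSO 2) and from -1.95 to -1.65 for FETUB (2 of 12, without S154A_CDCA 1 or S154D_CDCA 1). Within slide 3 it was -4.25 and -2.17.

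The replicate block left these values at -3.15 and -1.80 and left neither past the threshold (limma adjusted p = 0.0731 and 0.0775). Replicate numbers were not taken to pair the arrays. Deviations of same-numbered arrays correlated at -0.35 to 0.51 over 18 pairs (median 0.09). Those of differently numbered arrays did so at -0.48 to 0.49 over 36 pairs (median -0.05). By slide, the median was 0.18 over 12 pairs on the same slide and -0.06 over 42 pairs on different slides. The main fit leaves slide out. No other call of a member changed under the replicate block.

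Small uncalled differences changed sign. HRG with S154D gave -0.13 with quantile normalisation and -0.13 with normexp, -0.18 with slide, -0.28 without slide 4, -0.033 with GC correction and -0.29 with GC and slide, and -0.28 to 0.37 without each array. HRG between mutants in DMSO gave 0.10 with quantile normalisation, 0.0047 with normexp, 0.081 without slide 4, 0.0023 with GC and slide, 0.46 within slide 3, and -0.57 to 0.081 without each array. FETUB with S154D gave 0.0083 with median scaling, 0.086 with no scaling, 0.060 without slide 4, and -0.25 to 0.060 without each array. FETUB in DMSO gave -0.19 with no scaling, -0.11 without slide 4, -0.019 with GC and slide, -0.46 within slide 1, and -0.11 to 0.20 without each array. AHSG with S154A gave -0.0020 with no scaling, -0.33 without slide 4, -0.022 with GC and slide and -0.47 at its other probe, and -0.33 to 0.64 without each array. The other AHSG probe also turned S154D (-0.56), DMSO (0.37) and the difference of responses (-0.083), and slide (-0.058) or GC and slide (-0.077) turned AHSG in CDCA. Without each array AHSG ran from 0.28 to 0.79 with S154D, -0.62 to 0.063 in DMSO, -0.31 to 0.66 in CDCA and -0.057 to 0.91 for the difference of responses.

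Over all genes, calls ran from 5 to 30 for CDCA with S154A (27 as reported), 0 to 2690 with S154D (2077), 0 to 1 between mutants in DMSO (0), 2 to 272 in CDCA (82) and 0 to 131 for the difference of responses (28). No scaling moved the median of all genes to -0.14 with S154A, 0.18 with S154D and -0.24 in DMSO. The flag for a positive and significant signal counted HRG on 12 arrays, KNG1 A_23_P212258 on 12 and A_24_P60381 on 1. The causes of these changes were not tested. The search for FXR response elements in promoters was not run.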
